A study of Drosophila melanogaster with 40 samples.

Results

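The 8 genes described here are the juvenile hormone epoxide hydrolase genes Jheh1, Jheh2 and Jheh3, the esterase genes Jhe and Jhedup, the hormone-responsive gene Kr-h1 and the receptor genes Met and gce, all from Drosophila melanogaster. They were taken by symbol from a count table of 17784 features (17558 genes and 226 transposable element families), and all 8 passed the filter on low counts that left 11477 features for testing. RNA came from pooled heads of WT male flies that were 10 days old at collection. Flies were fed chronically, for all 10 days of adult life, or acutely, for the last 24 h. Chronic groups received 2-AAPA (n = 7), mitoQ (n = 6) or DMSO (n = 7), and acute groups received 2-AAPA (n = 6), mitoQ (n = 7) or DMSO (n = 7). 2-AAPA, an inhibitor of glutathione reductase, was given at 10 µM and mitoQ, an antioxidant directed to mitochondria, at 100 µM. DMSO was given at 0.2%. By the study's methods, acute flies lived on cornmeal-molasses food before they were moved to the instant medium that carried the drug, while chronic flies fed on that medium throughout, so feeding time and food cannot be told apart. The labels name DMSO as the vehicle of every group, whereas the study lists ethanol as the solvent of mitoQ, and none of the 6 groups received ethanol alone.

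Juvenile hormone is a lipid-like hormone made by the corpora allata, glands near the brain, and in adult flies it acts on reproduction, metabolism and behaviour. Its receptors, Met and gce, are related bHLH-PAS transcription factors that bind the hormone and switch on target genes, of which Kr-h1, a zinc finger transcription factor, is the best known. The hormone is broken down by esterases, which cut its methyl ester, and by epoxide hydrolases, which open its epoxide ring.

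The clearest difference in these 8 genes went with the feeding schedule and lay in Jheh2, a gene of the breakdown enzymes. Jheh2 was 11.7% lower in chronic than in acute flies, and this call held in 9 of 9 alternative fits and with each of the 40 samples left out. Kr-h1 was 20.6% higher in chronic flies, with an adjusted p just under the threshold of 0.05. That call was kept in 4 of 9 alternative fits and in 15 of 40 fits with a sample left out. The count of Kr-h1 is also uncertain, because all exonic bases of another gene, CG45075, lie within its exons. No gene of the set passed the test for either drug.

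The labels, the depth and the purity of the samples were checked first. Total counts were between 24318573 and 30104079 per sample. Levels are given as CPM, counts per 1e+06 counts of a sample. Library totals were adjusted by TMM factors for the values of single genes, but not for the sums of markers. The 4 photoreceptor markers summed to between 35150 and 55021 CPM, and all 4 neuron and all 4 glia markers were detected in every sample. The study left a chronic DMSO sample out of its own analysis as an outlier without naming it, whereas all deposited samples were used here. Chronic DMSO replicate 7 stood apart, with 566 CPM of testis and accessory gland markers, which belong to the body, against at most 0.55 CPM in the other 39 samples. Acute DMSO replicate 5 stood apart in its length trend, the slope with which a sample's features deviate from their median as feature length doubles: it was -0.43 log2 CPM, against -0.19 to 0.13 in the other 39 samples. Acute 2-AAPA replicate 1 held 76.5 CPM of 6 antennal markers (a list added after the data were seen), against 8.75 to 18.9 CPM elsewhere. In bulk samples, fewer cells of a type and less RNA per cell cannot be told apart. No label states that replicates came from separate cohorts of flies, so p-values measure the spread between these samples.

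The genes spanned a wide range of levels when counts were set relative to exon length. Jheh2 averaged 114 ± 12.3 CPM per kilobase and Jheh1 108 ± 14.2 CPM per kilobase over all samples (SD, n = 40). Jheh3 followed at 40.7 ± 4.73 CPM per kilobase. The regulators lay close together, with Kr-h1 at 12.4 ± 2.48, gce at 10.9 ± 2.01 and Met at 9.55 ± 0.935 CPM per kilobase. The esterase genes were lowest, with Jhe at 3.52 ± 0.660 and Jhedup at 1.85 ± 1.66 CPM per kilobase. The steps from Jheh1 to Jheh3, from Jheh3 to Kr-h1 and from Met to Jhe were present in 40 of 40 samples, with ranges that did not overlap. The ranges of the other neighbours overlapped: Jheh2 was above Jheh1 in 33 of 40 samples, Kr-h1 above gce in 32, gce above Met in 35 and Jhe above Jhedup in 33.

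**Figure D1:**
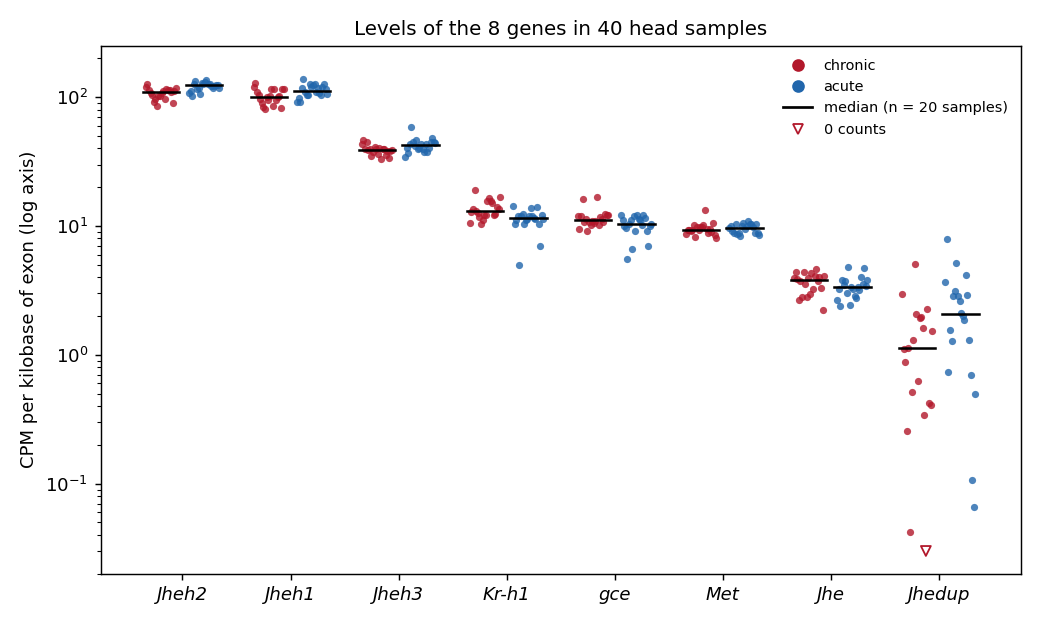
CPM per kilobase of exon (log axis) of the 8 genes in each of the 40 head samples, chronic in red left of acute in blue, with the median of the 20 samples of each schedule as a line. Jheh2 and Jheh1 sit highest, the points of Jhedup spread most, and the triangle marks the sample in which Jhedup had 0 counts.

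The spread between samples of 1 group also differed between the genes. The SD of log2 CPM within groups was 0.13 for Met and 0.13 for Jheh2, 0.15 for Jheh3, 0.18 for Jheh1, 0.28 for Jhe, 0.28 for gce and 0.31 for Kr-h1, with a median of 0.24 over all tested features. Jhedup stood far outside this range at 1.48, a spread above that of 99.2% of tested features. Small shifts could therefore be resolved for Met and Jheh2, whereas the scatter of Jhedup hid all but very large ones.

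Of the epoxide hydrolase genes, Jheh2 passed the test for schedule and Jheh1 and Jheh3 did not. Jheh1, Jheh2 and Jheh3 lie in tandem on the minus strand of chromosome 2R of the BDGP6 assembly, at 18853434 to 18855087, 18855767 to 18858245 and 18860375 to 18862078, with 679 and 2129 bases between neighbours. An antisense gene on the plus strand, asRNA:CR46485 (18853372 to 18861263), covers 1486 of 1486 exonic bases of Jheh1, 1765 of 1926 of Jheh2 and 780 of 1576 of Jheh3. The library kit keeps strand, but the strand setting of the counting is not given in the sources used here, so the sense and antisense reads of these 3 genes may not be fully separated.

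In chronic flies, Jheh2 had between 166 and 245 CPM, with a median of 209.8 CPM (n = 20). In acute flies it had between 195 and 261 CPM, with a median of 238 CPM (n = 20). The ranges overlapped, but 19 of 20 chronic samples lay below the acute median and 5 lay below the lowest acute sample. In edgeR's quasi-likelihood test with drug and schedule as terms, the log2 fold change, chronic over acute, was -0.18 ± 0.044 (SE), with a Benjamini-Hochberg adjusted p of 0.0049. In the same fit, 992 of all 11477 features passed the threshold (8.64%), 324 of them higher (2.82%) and 668 lower (5.82%) in chronic flies, and 2 of the 8 genes passed, Jheh2 lower and Kr-h1 higher. An unadjusted p under 0.05 was found for 6 of the 8 genes and for 2560 of all features. The median log2 fold change was -0.07 over the 8 genes and 0.01 over all features.

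Jheh1 and Jheh3, the neighbours of Jheh2, did not pass the test. Jheh1 had 120 to 193 CPM in chronic flies (median 150.3) and 135 to 207 CPM in acute flies (median 166). The schedule log2 fold change of Jheh1 was -0.15 ± 0.058 (SE; adjusted p = 0.112). Jheh3 had 52.1 to 73.6 CPM in chronic flies (median 61.7) and 54.1 to 92.5 CPM in acute flies (median 66.8). Its log2 fold change was -0.13 ± 0.048 (SE; adjusted p = 0.0987), and 17 of 20 chronic samples lay below the acute median. The highest acute value of Jheh1 and of Jheh3 came from acute DMSO replicate 5, which stood apart in its length trend.

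The schedules were then compared within each drug. Jheh2 had a lowest, median and highest value of 166, 196 and 223 CPM in chronic 2-AAPA flies and of 204, 247 and 261 CPM in acute 2-AAPA flies. All 7 chronic samples lay below the acute median, and the log2 fold change was -0.29 ± 0.075 (SE; edgeR adjusted p = 0.0199). Of all features, 4.21% passed in this comparison, and Jheh2 was the only gene of the set to pass. The adjusted p was between 0.0526 and 0.0652 without acute 2-AAPA replicate 4, acute 2-AAPA replicate 5 or chronic 2-AAPA replicate 1, and 0.0719 when only these 2 groups entered the fit. Without acute 2-AAPA replicate 5, 315 features passed, against 483 with it.

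Under mitoQ, Jheh2 had 173, 216 and 227 CPM as lowest, median and highest value in chronic flies and 227, 237 and 242 CPM in acute flies. The highest chronic mitoQ sample, 227.1 CPM, lay just below the lowest acute one, 227.2 CPM. The share of all features that separate in this way is not given here. The log2 fold change was -0.16 ± 0.076 (SE), the unadjusted p was 0.0401 and the adjusted p was 0.947 in edgeR's test, in a comparison in which 0.157% of features passed (18 features, and 10 to 11 without acute mitoQ replicate 3 or chronic mitoQ replicates 5 or 6). Under DMSO, Jheh2 had 176, 208 and 245 CPM in chronic flies and 195, 222 and 259 CPM in acute flies. That difference, a log2 fold change of -0.10 ± 0.073 (SE; adjusted p = 0.599), did not pass, in a comparison in which 5.11% of features did (137 features, against 586, without chronic DMSO replicate 7). A test of whether the schedule difference itself varied between drugs gave an adjusted p of 0.9998 for every one of the 8 genes, and 0% of all features passed it, so the value under 2-AAPA is not shown to differ from the changes under mitoQ and DMSO. At an unadjusted p under 0.05, 704 features and none of the 8 genes were found in that interaction test, and DESeq2 called 39 features and none of the 8 genes.

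**Figure D2:**
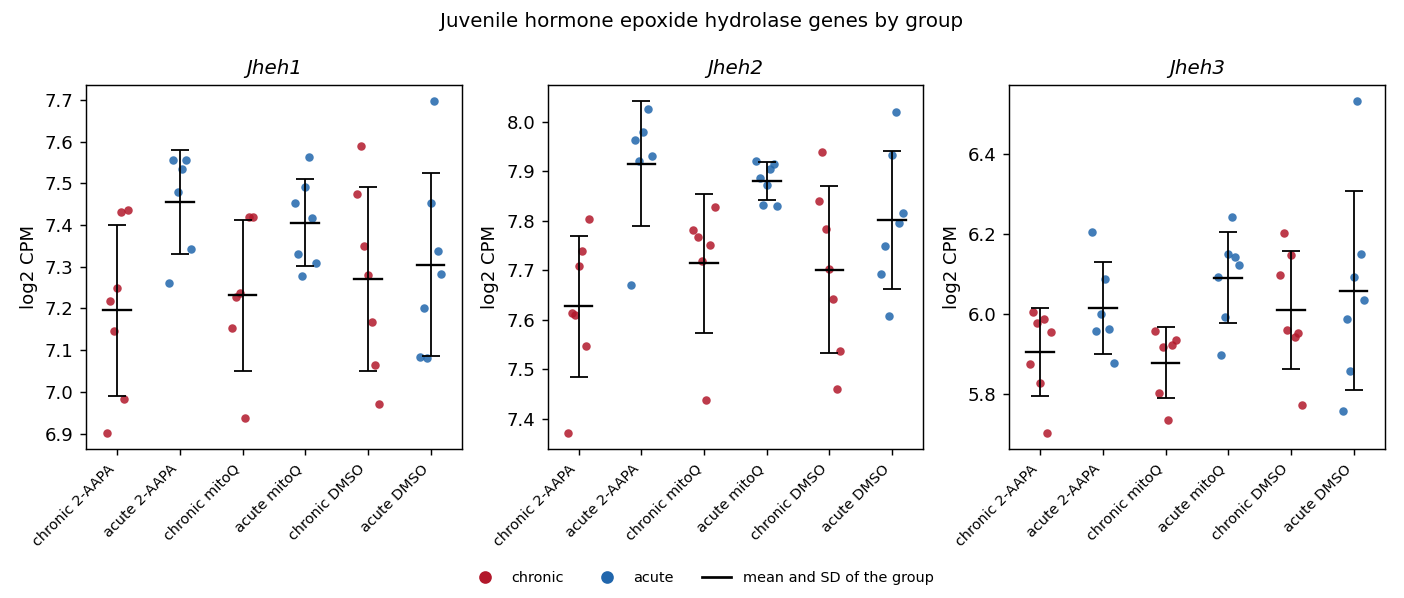
Log2 CPM of Jheh1, Jheh2 and Jheh3 in each sample of the 6 groups (n = 6 or 7), chronic in red left of acute in blue for each drug, with the mean and SD of each group in black. For Jheh2 the chronic mean was below the acute mean under 2-AAPA, mitoQ and DMSO. Only the Jheh2 difference under 2-AAPA passed edgeR's test (adjusted p = 0.0199).

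The 3 genes of the cluster were also compared across samples. Over the 40 samples, log2 CPM of Jheh1 and Jheh2 had a Pearson r of 0.91 and a Spearman rho of 0.90, and r was 0.88 without the 2 samples farthest from the median of Jheh1. For Jheh1 and Jheh3, r was 0.70 and rho 0.64. Jheh2 and Jheh3 were the least alike of the 3, with r at 0.56 and rho at 0.53, and with rho at 0.43 within groups. These are descriptions, among 28 pairs of genes, of values that share libraries and their depth. The features most like Jheh2 over the 40 samples were 26-29-p, a cysteine protease gene (rho = 0.91), and CG4572 (rho = 0.90). Those most like Jheh1 were 26-29-p (rho = 0.84) and CG7724 (rho = 0.83), and those most like Jheh3 were CG30197 (rho = 0.82) and GstO3, a glutathione transferase gene (rho = 0.82).

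Another measure moved with all 3 genes. The summed level of 4 neuron markers (elav, nSyb, brp and Syt1) had a Pearson r of -0.71 with Jheh1, -0.62 with Jheh2 and -0.73 with Jheh3 over the 40 samples. This sum was 1069 to 2147 CPM in chronic flies (median 1423) and 919.8 to 1701 CPM in acute flies (median 1182 CPM). The fit with the sum as a covariate used its log2 after scaling by TMM factors. There the schedule log2 fold change of Jheh2 was -0.14 (adjusted p = 0.0323), that of Jheh1 was -0.07 (adjusted p = 0.446) and that of Jheh3 was -0.06 (adjusted p = 0.449). Jheh2 within 2-AAPA was at -0.22 (adjusted p = 0.0694) in that fit.

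The esterase genes gave no call. Jhe, at 16119793 to 16122773 on chromosome 2R, and Jhedup, its duplicate 643 bases upstream at 16117109 to 16119149, lie on the plus strand and are not overlapped by another annotated gene. Jhe encodes the esterase that cleaves juvenile hormone, and the product of Jhedup has been described in this fly as an antennal esterase that acts on food odours.

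Jhe had 4.69 to 9.76 CPM in chronic flies (median 8.04) and 5.06 to 10.1 CPM in acute flies (median 7.04). Chronic over acute, the log2 fold change of Jhe was 0.11 ± 0.086 (SE; adjusted p = 0.486), with a 95% confidence interval from -0.07 to 0.28. Jhe and Jhedup did not vary together over the 40 samples, with r at -0.05 and rho at -0.11.

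Jhedup had between 0 and 268 counts in chronic flies (median 55.5 counts) and between 3 and 387 counts in acute flies (median 98 counts). The 0 was in chronic mitoQ replicate 2, where a count of 0 allows up to 3 counts. Its log2 fold change was -0.94 ± 0.427 (SE), the largest in size of the 8 genes, with a 95% confidence interval from -1.80 to -0.08 and an adjusted p of 0.182. By group, the lowest, median and highest values were 1.11, 3.39 and 8.87 CPM in chronic 2-AAPA flies and 3.29, 4.18 and 9.10 CPM in acute 2-AAPA flies. They were 0, 0.731 and 3.98 CPM in chronic mitoQ flies and 0.115, 1.23 and 7.26 CPM in acute mitoQ flies. Under DMSO they were 0.0737, 1.54 and 5.24 CPM in chronic flies and 1.28, 5.03 and 14.05 CPM in acute flies. Every pair of groups overlapped, and samples of 1 group spread widely.

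The features most like Jhedup were Obp28a, an odorant-binding protein gene of the antenna (rho = 0.95), and GstE4, a glutathione transferase gene (rho = 0.93). The antennal marker list (Orco, lush, Obp83a, Obp83b, Obp19a and a10) had all 6 genes in the table, 5 of them detected in every sample. Its sum was 8.75 to 18.6 CPM in chronic flies (median 11.6) and 8.97 to 76.5 CPM in acute flies (median 14.2), and its rho with Jhedup was 0.72. Pearson r for that pair was 0.35, and 0.61 without the 2 samples farthest from the median sum. The rho of the sum with Jheh1, Jheh2 and Jheh3 was 0.46, 0.50 and 0.48. The part of antennal tissue in the spread of Jhedup was not tested.

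Kr-h1, at 6082603 to 6096498 on the plus strand of chromosome 2L, was the only one of the 8 genes called higher in chronic flies. The fitted values of gce and Jhe were also above 0 without passing, and no test compared Kr-h1 with them. It had 55.3 to 102 CPM in chronic flies (median 69.2) and 26.4 to 75.4 CPM in acute flies (median 60.7). Of the 20 chronic samples, 17 lay above the acute median and 6 above the highest acute sample. The log2 fold change was 0.27 ± 0.088 (SE; edgeR adjusted p = 0.0459), with a 95% confidence interval from 0.09 to 0.45.

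By group, the lowest, median and highest values of Kr-h1 were 55.3, 64.8 and 87.3 CPM in chronic 2-AAPA flies and 54.9, 61.5 and 72.9 CPM in acute 2-AAPA flies. Under mitoQ they were 64.7, 73.5 and 89.3 CPM in chronic flies and 37.2, 60.1 and 74.0 CPM in acute flies. Under DMSO they were 56.0, 68.7 and 102 CPM in chronic flies and 26.4, 63.5 and 75.4 CPM in acute flies. The groups overlapped under every drug, and all 6 chronic mitoQ samples lay above the acute mitoQ median. No single drug gave a call: the log2 fold change was 0.19 ± 0.158 under 2-AAPA (adjusted p = 0.661), 0.34 ± 0.157 under mitoQ (adjusted p = 0.942) and 0.28 ± 0.152 under DMSO (SE; adjusted p = 0.393).

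The count of Kr-h1 is uncertain because all 4168 exonic bases of another gene, CG45075 (6091412 to 6096498, same strand), lie within its 5306 exonic bases. CG45075 had 471 to 2381 counts, which was 81.9% to 96.2% of the count of Kr-h1 in the same sample, and it was the feature most like Kr-h1 (rho = 0.96). Reads in the shared exons cannot be told apart from the table, so the likeness of CG45075 and its change are not separate evidence. CG45075 itself had a schedule log2 fold change of 0.27 and did not pass (edgeR adjusted p = 0.0569). The next most like feature was cwo, which encodes a repressor of the circadian clock (rho = 0.85).

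Kr-h1 also moved with the length trend of the samples, with a Pearson r of 0.74 over the 40 samples and of 0.51 without the 2 samples farthest from the median trend. The epoxide hydrolase genes moved the other way, with r at -0.75 for Jheh3, -0.51 for Jheh1 and -0.33 for Jheh2. Without those 2 samples r was -0.58, -0.47 and -0.29. With the trend as a covariate, their schedule log2 fold changes were -0.07, -0.11 and -0.16 (edgeR adjusted p = 0.203, 0.186 and 0.00821). The median trend was 0.02 in chronic flies and -0.00 in acute flies, and over 7980 well-expressed features the schedule log2 fold change had a rho of 0.41 with feature length, a correlation across features that are not independent. The part of the trend in the change of Kr-h1 was not tested further than this: with the trend as a covariate, the log2 fold change was 0.19 (adjusted p = 0.0544). It was 0.24 (adjusted p = 0.0670) with the share of ribosomal RNA as a covariate and 0.25 (adjusted p = 0.0952) with the neuron marker sum. Without acute DMSO replicate 5 and chronic DMSO replicate 7 it was 0.24 (adjusted p = 0.0270). With each sample left out in turn, the log2 fold change was 0.23 to 0.30 and the adjusted p 0.0257 to 0.0741, and 15 of the 40 fits kept the call. The call was lost without acute 2-AAPA replicates 1, 2, 3, 4 or 6, acute mitoQ replicates 1, 2, 4, 5, 6 or 7 and acute DMSO replicates 2, 3 or 4. It was also lost without chronic 2-AAPA replicates 5, 6 or 7, chronic mitoQ replicates 1, 4, 5 or 6 and chronic DMSO replicates 3, 4, 5 or 6.

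**Figure D3:**
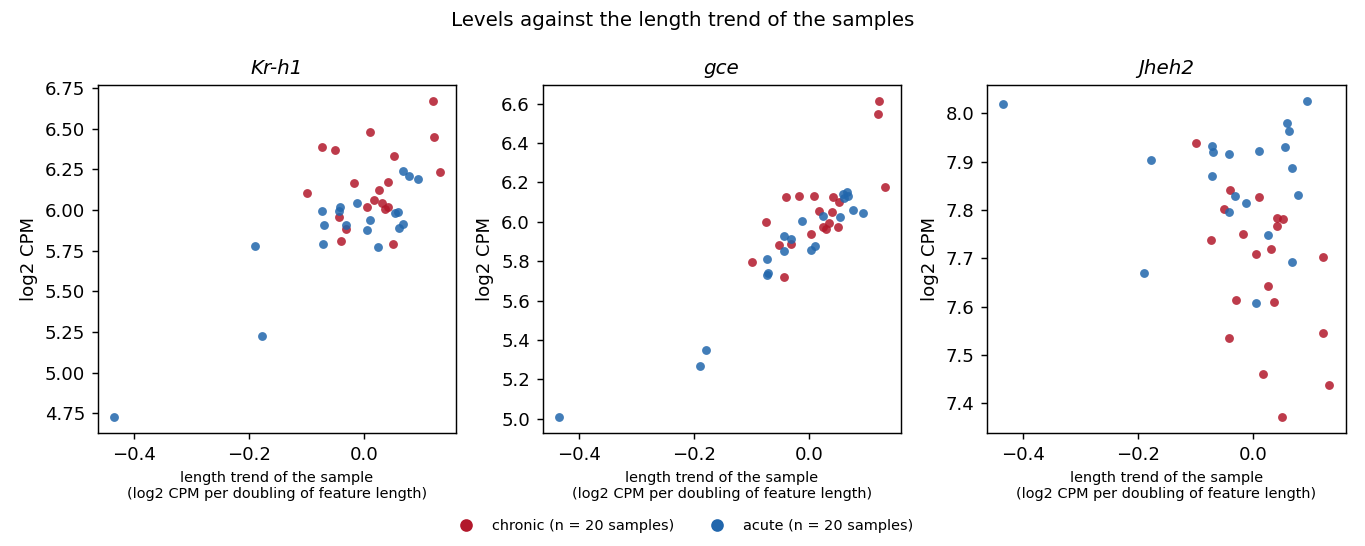
Log2 CPM of Kr-h1, gce and Jheh2 against the length trend of each sample, in log2 CPM per doubling of feature length, with chronic samples in red and acute samples in blue (n = 20 each). Kr-h1 and gce lie higher in samples with a higher trend (r = 0.74 and 0.89), and acute DMSO replicate 5 is the point at the far left.

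The receptor genes Met and gce differed from each other in how steady they were. Met, at 11616124 to 11621280 on the plus strand of chromosome X, had 40.8 to 67.2 CPM in chronic flies (median 47.6) and 42.7 to 55.5 CPM in acute flies (median 49.3). Its log2 fold change was -0.02 ± 0.042 (SE; adjusted p = 0.793), and the 95% confidence interval from -0.11 to 0.06 limits a schedule difference of Met to about that size. gce, at 15297766 to 15319074 on the same strand and chromosome, had 52.7 to 97.9 CPM in chronic flies (median 65.0) and 32.1 to 70.9 CPM in acute flies (median 60.5). Its log2 fold change was 0.19 ± 0.083 (SE; adjusted p = 0.152), and 16 of 20 chronic samples lay above the acute median.

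gce followed the length trend more closely than any other gene of the set, with r at 0.89, and at 0.82 without the 2 samples farthest from the median trend. With the trend as a covariate its log2 fold change was 0.09 (adjusted p = 0.128). The summed level of the 4 glia markers also moved with gce (r = 0.87) and Kr-h1 (r = 0.78), and against Jheh3 (r = -0.62). Without the 2 samples farthest from the median of that sum, r was 0.77, 0.56 and -0.29. The part of the glia sum in these genes was not tested. In acute DMSO replicate 5, gce had 640 counts and Kr-h1 526 counts, the lowest of both genes. The antisense genes asRNA:CR44429 and asRNA:CR44961 share 167 and 2197 exonic bases with gce, and had 14 to 44 and 66 to 134 counts. Met and gce did not vary together (r = 0.19, rho = 0.16), whereas Kr-h1 and gce did (r = 0.80, rho = 0.57, and r = 0.61 without the 2 samples farthest from the median of Kr-h1). The features most like Met were nAChRalpha3, a nicotinic acetylcholine receptor subunit gene (rho = 0.86), and Pkc98E, a protein kinase C gene (rho = 0.86). Those most like gce were Epac, which encodes a cAMP-activated exchange factor (rho = 0.87), and CG42750 (rho = 0.86). Those most like Jhe were less alike, Timp, a metalloproteinase inhibitor gene (rho = 0.60), and CG8545 (rho = 0.59).

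**Figure D4:**
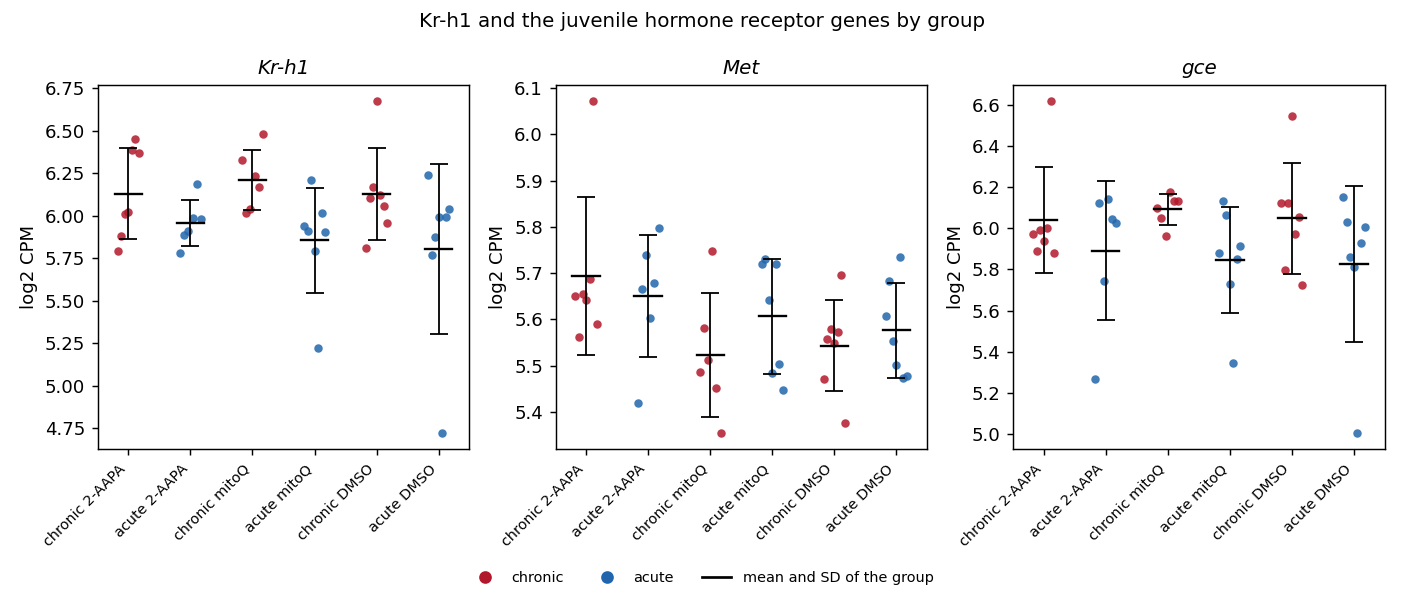
Log2 CPM of Kr-h1, Met and gce in each sample of the 6 groups (n = 6 or 7), chronic in red left of acute in blue for each drug, with the mean and SD of each group in black. Chronic and acute points overlap in all 3 genes, Met is the steadiest, and acute DMSO replicate 5 is the lowest point of Kr-h1 (4.72) and of gce (5.01).

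**Figure D5:**
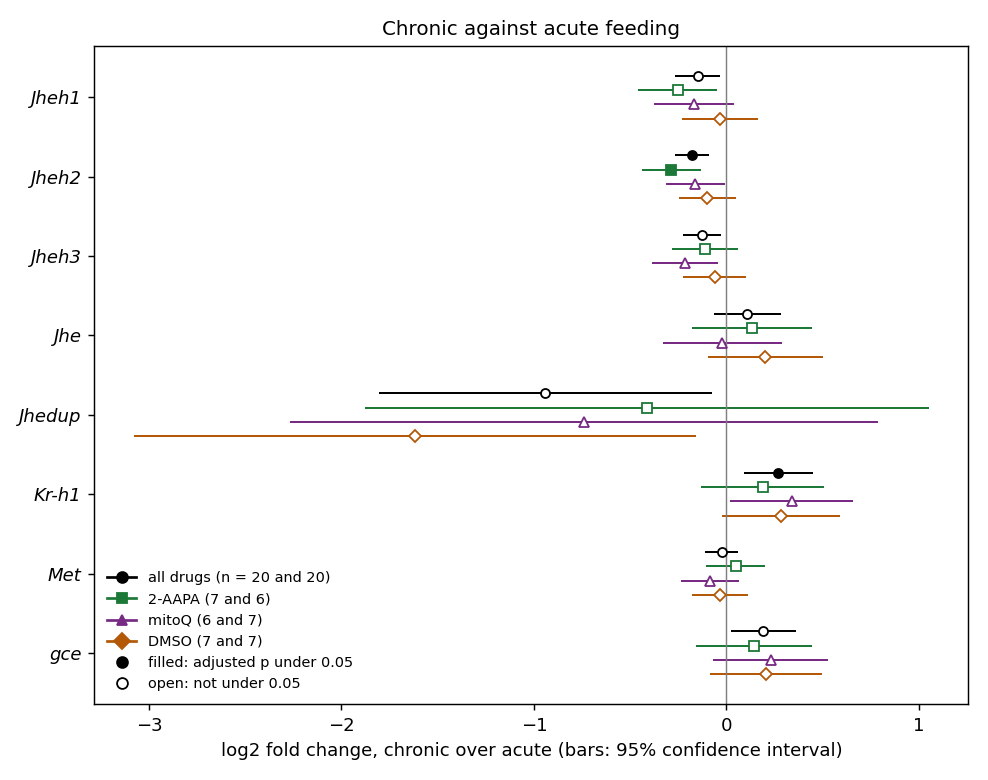
Log2 fold change, chronic over acute, of the 8 genes for all drugs together and for 2-AAPA, mitoQ and DMSO, with 95% confidence intervals from edgeR, filled where the adjusted p over all features is under 0.05. The filled points are Jheh2 for all drugs (-0.18) and for 2-AAPA (-0.29) and Kr-h1 for all drugs (0.27).

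The drugs were compared with DMSO next, over both schedules and within each. In the test of either drug over both schedules, 0 of the 8 genes and 0.00871% of all features passed. Met had the smallest p of the set in that test (unadjusted p = 0.0470, adjusted p = 0.602). The other comparisons with DMSO share their controls, since both acute drugs were set against the same acute DMSO samples and both chronic drugs against the same chronic DMSO samples. None of the 8 genes passed in any of them, at any alternative setting.

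With chronic feeding of 2-AAPA, Met had 47.1, 50.1 and 67.2 CPM as lowest, median and highest value, against 41.5, 47.0 and 51.8 CPM with chronic DMSO. All 7 chronic 2-AAPA samples lay above the chronic DMSO median, though the groups overlapped. The log2 fold change was 0.16 ± 0.072 (SE; unadjusted p = 0.0347, adjusted p = 0.421) in edgeR's test, in a comparison in which 2.13% of features passed (0% without chronic DMSO replicate 7). The highest value came from chronic 2-AAPA replicate 6, and without it the log2 fold change was 0.09 (adjusted p = 0.854). Jheh2, the gene with the schedule call, had a log2 fold change of -0.08 (95% confidence interval -0.22 to 0.07) for chronic 2-AAPA against chronic DMSO.

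With chronic feeding of mitoQ, the 8 genes had adjusted p-values of 0.776 or more in edgeR's test, and 1.82% of features passed (0% without chronic DMSO replicate 7). Jheh2 had a log2 fold change of 0.01 (95% confidence interval -0.14 to 0.16), Kr-h1 of 0.07 (-0.25 to 0.39) and gce of 0.02 (-0.28 to 0.32). Jheh3 was the farthest from 0 of the epoxide hydrolase genes, at -0.14 (-0.31 to 0.04).

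Acute feeding gave no call either. For acute 2-AAPA against acute DMSO, 0.0261% of features passed (3 features, and 0 to 9 with a sample left out), none of the 8 genes had an unadjusted p under 0.05, and Jheh1 and Jheh2 were at a log2 fold change of 0.14 (95% confidence interval -0.07 to 0.35) and 0.11 (-0.04 to 0.27). For acute mitoQ against acute DMSO, 0% of features passed. At an unadjusted p under 0.05, 177 features were found in that comparison, none of them among the 8, and DESeq2 called 1 feature. All 7 acute mitoQ samples of Jheh2 lay above the acute DMSO median, with a log2 fold change of 0.07 (95% confidence interval -0.07 to 0.22).

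Genes that make the hormone were read beside these 8. The list held 7 genes of the mevalonate and farnesyl steps and jhamt, the methyltransferase of the last step, and all 8 were tested. None passed for schedule, where 8.64% of all features did, and none passed in the other 9 comparisons. The median schedule log2 fold change was 0.04, against 0.01 over all features. Hmgs, which encodes an early enzyme of the mevalonate pathway, had the highest level of the list and a schedule log2 fold change of 0.07 ± 0.066 (SE; adjusted p = 0.570). jhamt was detected in every sample, with a schedule log2 fold change of 0.12 ± 0.127.

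Of 5 receptor partners, 1 passed for schedule, where 8.64% of all features did. Hsp83, the Hsp90 chaperone that helps carry Met into the nucleus, had 543 to 740 CPM in chronic 2-AAPA flies and 686 to 781 CPM in acute 2-AAPA flies. It had 561 to 635 CPM in chronic mitoQ flies and 687 to 861 CPM in acute mitoQ flies, and 512 to 691 CPM in chronic DMSO flies and 559 to 785 CPM in acute DMSO flies. The log2 fold change with schedule was -0.31 ± 0.045 (SE; adjusted p = 5.39e-06), and Hsp83 also passed within 2-AAPA (-0.32, adjusted p = 0.0122) and within DMSO (-0.26, adjusted p = 0.0383; 0.125 without chronic DMSO replicate 7). Of the fits with a sample left out, 31 of 40 kept the call within DMSO, as did 7 of 10 other alternatives, with an adjusted p of up to 0.369 when only the groups compared were fitted. Within mitoQ, Hsp83 was at -0.34 and did not pass (adjusted p = 0.0877). Chaperones of this class answer to many signals besides the hormone. The other 4 genes of the list did not pass, and the median was -0.04.

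Among genes described as inducible by the hormone, 6 were listed, 5 were tested and 1 passed for schedule, again beside 8.64% of all features. hry (hairy), a bHLH repressor that acts in the hormone response of mosquitoes, had 67.5, 84.3 and 125 CPM as lowest, median and highest value in chronic 2-AAPA flies and 44.4, 57.6 and 69.6 CPM in acute 2-AAPA flies. It had 79.9, 85.1 and 91.3 CPM in chronic mitoQ flies and 54.5, 58.3 and 76.5 CPM in acute mitoQ flies. Under DMSO it had 73.0, 80.4 and 106 CPM in chronic flies and 47.4, 54.0 and 66.8 CPM in acute flies. Under mitoQ and DMSO the lowest chronic value lay above the highest acute one, and the share of all features that separate so is not given here. hry rose by a log2 fold change of 0.61 ± 0.070 with chronic feeding (SE; adjusted p = 7.50e-08), and passed within 2-AAPA (0.75, adjusted p = 0.000199) and DMSO (0.62, adjusted p = 0.00187) but not within mitoQ (0.47, adjusted p = 0.198). Eip75B, a nuclear receptor gene induced by ecdysone and by juvenile hormone, had the highest level of the list and a schedule log2 fold change of 0.15 ± 0.072. The median of the list was 0.08.

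The family of juvenile hormone binding proteins, named for the domain they share, had 17 listed genes, of which 13 were tested and 1 passed for schedule, where 8.64% of all features did. Jhbp11 had 16.01 to 27.4 CPM in chronic 2-AAPA flies and 24.1 to 32.4 CPM in acute 2-AAPA flies. It had 13.9 to 18.9 CPM in chronic mitoQ flies and 18.7 to 25.9 CPM in acute mitoQ flies, and 3.74 to 25.4 CPM in chronic DMSO flies and 20.5 to 34.3 CPM in acute DMSO flies. With schedule, the log2 fold change of Jhbp11 was -0.46 ± 0.119 (SE; adjusted p = 0.00898). takeout (to), a feeding-related gene of the head fat body, had the highest level of the family and a schedule log2 fold change of -0.20 ± 0.128, which did not pass. The median of the family was -0.00. Of 7 genes of the ecdysone response, the steroid pathway that juvenile hormone counteracts in larvae, none passed for schedule, beside 8.64% of all features. The median of that list was 0.13, and ftz-f1, the one with the highest level, was at -0.04 ± 0.050.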

How the data were processed

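RNA-Seq of 40 head samples was analysed. The authors deposited raw counts per gene and per transposable element family, made with featureCounts and TEcount on BDGP6, with up to 500 multimapped locations allowed. The strand setting of the counting is not given in the sources used here. The table also gives a feature length, and 0 columns of samples were left out. Counts were scaled to CPM by TMM, except in the printed sums of markers, which used unadjusted library totals. Log2 CPM used a prior count of 2. Features were filtered with filterByExpr and tested with edgeR 4.0.16 (R 4.3.3) by the quasi-likelihood test, with Benjamini-Hochberg adjustment over 11477 features and a threshold of 0.05. SE is the log2 fold change over the root of F. The test was checked on simulated data. DESeq2 1.42.0, limma 3.58.1 after cyclic LOESS and other settings were alternatives.

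The 8 genes and the lists were chosen with earlier results of these data known. Beside the 8, the text names genes of each list that passed any of 10 comparisons, the one with the highest level in each list and, for each of the 8, the 2 features of highest Spearman correlation. jhamt was named after its values were seen. The antennal list and 4 alternatives were added after the data were seen. Of 114 sample pairs within groups, 0 were identical. Intervals of counts cover counting error only.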

Additional observations from a re-analysis of the deposited data

Results flagged for a closer look

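In 8 of the 48 combinations of gene and group, 1 sample stood apart from the rest of its group in log2 CPM by Dixon's criterion. Chance gives about 1 in 20 groups if these are independent, which they are not here, since the genes share samples. Acute DMSO replicate 5 and chronic 2-AAPA replicate 6 each stood apart in more than 1 gene. The rate over all tested features is not given here. Jheh2 was lowest at 7.44 in chronic mitoQ replicate 4 and at 7.67 in acute 2-AAPA replicate 1. Kr-h1 was highest at 6.67 in chronic DMSO replicate 4, and lowest at 4.72 in acute DMSO replicate 5 and at 5.22 in acute mitoQ replicate 5. gce was highest at 6.62 in chronic 2-AAPA replicate 6 and lowest at 5.01 in acute DMSO replicate 5. Met was highest at 6.07 in chronic 2-AAPA replicate 6. The length trends of these samples were 0.13 in chronic mitoQ replicate 4 (the highest of the 40 samples), 0.12 in chronic 2-AAPA replicate 6, 0.12 in chronic DMSO replicate 4, -0.18 in acute mitoQ replicate 5, -0.19 in acute 2-AAPA replicate 1 and -0.43 in acute DMSO replicate 5, and their part in these values was not tested.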

How the results depend on the processing

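No result reversed. For schedule, 1 gene of the 8 was called, against 2, with the replicate block, with cyclic LOESS and limma, and with the length trend, the ribosomal RNA share or the neuron marker sum as a covariate. With each sample left out it was 1 to 3. Within 2-AAPA, 0 genes were called, against 1, when only the groups compared were fitted and with the neuron marker sum as a covariate, and 0 to 1 with each sample left out. With the replicate block, the adjusted p of Kr-h1 for schedule was 0.0531, at a log2 fold change of 0.27. Same-numbered samples of different groups had a median correlation of -0.03 (-0.57 to 0.62), and 9 of 40 correlated best with their own number. By comparison, that median ran from -0.31 (chronic mitoQ against chronic DMSO) to 0.16 (acute mitoQ against acute DMSO). Whether the numbers mark samples handled together cannot be told from these values. The schedule call of Jheh2 was kept in 9 of 9 other alternatives and 40 of 40 fits with a sample left out, that of Kr-h1 in 4 of 9 and 15 of 40, and the call of Jheh2 within 2-AAPA in 8 of 10 and 37 of 40. Jheh3 was called for schedule without acute DMSO replicate 1 (adjusted p = 0.0379) and Jheh1 without chronic DMSO replicate 2 (adjusted p = 0.0468).

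Over all features, the number called for schedule, 992, was 1826 with no filter. Called higher and lower were 324 and 668, against 597 and 744 with the length trend and 396 and 498 with the neuron marker sum as covariates. Within DMSO, 586 became 2845 with no filter, 126 with the replicate block, 33 with only the groups compared, 110 with cyclic LOESS and 80 without both samples that stood apart. Within 2-AAPA, 483 became 890 with the length trend and 752 without both samples. Within mitoQ, 18 became 34 with only the groups compared and 33 with DESeq2. For drug, 1 became 1672 with no filter and 2 with DESeq2. For acute 2-AAPA, 3 became 8 with DESeq2, 1 with the length trend and 0 with no filter, the replicate block, only the groups compared, cyclic LOESS, the ribosomal RNA share or the neuron marker sum. For chronic 2-AAPA, 245 became 2299 with no filter, 83 with DESeq2, 144 with the ribosomal RNA share, 67 with the neuron marker sum and 0 with the replicate block, with only the groups compared, with cyclic LOESS and without both samples. For chronic mitoQ, 209 became 2152 with no filter, 72 with DESeq2, 55 with the length trend and 0 under the same 4 settings. With a sample left out, chronic 2-AAPA reached as low as 0, chronic mitoQ 0 to 315 and the interaction up to 35, against 0. The causes were not tested.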
